A study of Saccharomyces cerevisiae with 16 samples.

Results

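The histone genes of the budding yeast Saccharomyces cerevisiae were followed by the 3′ ends of their polyadenylated transcripts. The genes were taken by name: HTA1 and HTA2 (histone H2A), HTB1 and HTB2 (H2B), HHT1 and HHT2 (H3), HHF1 and HHF2 (H4), HHO1 (the linker histone H1) and HTZ1 (the variant H2A.Z). They are 10 of 6002 annotated protein-coding genes, and all 10 were among the 5529 genes that passed the filter on low counts and were tested. All libraries came from BY4741, a laboratory strain (Mat a; his3 leu2 ura3 met15), grown in rich medium with glucose (YPD) at 30 °C. Single cells had been enclosed in alginate microspheres, where they divided into microcolonies, or the strain had been grown free in batch culture.

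The 14 libraries compared formed 6 groups. Fixed unsorted particles (3 libraries), sorted big colonies (3) and sorted small colonies (2) had been fixed with ethanol, per the labels. Unfixed particles (2) were neither fixed nor sorted, and batch cultures were taken at Abs600 0.5 (2) and at Abs600 2 (2) without particles. The series design calls the duplicates and triplicates biological, without saying which cultures or days they share, so p-values measure the spread between these libraries. Libraries held 1506960 to 7871184 tags, of which 88.8% to 96.3% fell to protein-coding genes.

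Small replicate 4 stood apart before any histone gene was considered. It was barcoded in a separate read, and its sample type label reads as unfixed although its title and description call it fixed. It held 519 tags of LEU2, which the strain lacks, against 0 to 7 in the other 13 libraries, and 63 to 204 tags of each of 4 genes of the opposite mating type. In the other 13 libraries those genes had 0 to 25 tags, apart from SAG1 in small replicate 2 with 124. These counts are not scaled to depth, and replicate 4 was the deepest library. SAG1 had 204 of 7871184 tags in replicate 4 and 124 of 1873907 in replicate 2, so SAG1 did not set replicate 4 apart. Results with small colonies are therefore given for each of the 2 libraries, and the main results also without both. Of the other genes named in the genotype, HIS3 also set replicate 4 apart. It had 327 tags there and 439 to 2458 in the other 13 libraries, all of them shallower. URA3 had 1 to 84 tags over the 14 libraries, with 84 in replicate 4 and 83 in big replicate 2. MET17 (MET15) had 0 to 3 tags.

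Histones package DNA into nucleosomes, each built of H2A, H2B, H3 and H4. In yeast each core histone is encoded by a pair of genes, arranged as divergent pairs that share a promoter region, and their transcripts accumulate in S phase, when new DNA has to be packaged. Unlike the replication-dependent histone mRNAs of animals, yeast histone mRNAs carry a poly(A) tail, so a method that reads the poly(A) junction counts them. HTZ1 and HHO1 lie outside the divergent pairs, and HTZ1 is known to be made through the cell cycle.

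The copies of a pair differed little in their coding sequence and strongly after it, which decides how well tags can be assigned. The open reading frames (ORFs) of HHF1 and HHF2 were identical at 304 of 312 bases (97.4%), those of HTA1 and HTA2 at 93.7%, of HHT1 and HHT2 at 93.2% and of HTB1 and HTB2 at 87.9%. The longest identical stretch ran over 80, 65, 74 and 35 bases, respectively. In the 300 bases after the ORFs no identical stretch of a pair exceeded 11 bases. Most tags lay in that downstream part, so the copies could be told apart there, whereas tags inside the ORFs are less certain.

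The sequence at the most used 3′ end of each core histone gene is shown first, to mark where single positions held the most tags. Each line is 30 bases of the transcript strand of the R64 build (RefSeq), with the base that carried the tags as the capital letter. The site is that with the most tags over the 12 libraries other than small colonies.

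HTA1 (155 nt after the ORF): cggtaacatatgtcatgcatGatataaatt
HTA2 (195 nt): agtttacggttttacttacgGaaatgctaa
HTB1 (127 nt): ataagatatttactcggttgTaaaattgtg
HTB2 (255 nt): tataccctatttaggttcacTacacgagca
HHT1 (218 nt): aaaaaagccaggccttgtagGaggcaagat
HHT2 (250 nt): tatcaataaacatcattttcGaagagacta
HHF1 (164 nt): aatttaattttaattgggttTaaacagttt
HHF2 (176 nt): aataaaagaaactagtttccGaactgtctt

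These places are chrIV:916063-916092 on the plus strand for HTA1, chrII:235190-235219 (minus) for HTA2, chrIV:914181-914210 (minus) for HTB1 and chrII:237122-237151 (plus) for HTB2. They are chrII:256939-256968 (plus) for HHT1, chrXIV:575381-575410 (minus) for HHT2, chrII:255200-255229 (minus) for HHF1 and chrXIV:577194-577223 (plus) for HHF2. All lie after the ORF of the gene named. The single site held 57.5% of the tags of HHT2 and 53.4% of those of HHF2, but only 10.1% of those of HHT1, whose ends were spread over many positions.

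The promoters of the core genes shared a motif. The sequence TTCCNNNNNNTTCNC, a pair of half-sites read by Spt10, an activator of histone genes in yeast, was searched on both strands in the 500 bases before each ORF. It occurred before all 8 core histone genes, at 5 distinct places since divergent neighbours share the region between them, and before neither HHO1 nor HTZ1. Of all 6002 promoters searched, 174 (2.90%) held it. The motif was chosen because it is known from histone genes, so its matches before the core genes locate it and test nothing. The matches are printed 5′ to 3′ on the strand that carries them, with the fixed bases in capitals.

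HTA1 and HTB1, first match: TTCCaaaattTTCgC
HTA1 and HTB1, second match: TTCCaatagcTTCgC
HTA2 and HTB2: TTCCcattatTTCtC
HHT1 and HHF1: TTCCgagcgcTTCtC
HHT2 and HHF2: TTCCgagcacTTCgC

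The ORF starts of the divergent neighbours lay 817 bases apart for HTA1 and HTB1, 699 for HTA2 and HTB2, 646 for HHT1 and HHF1 and 676 for HHT2 and HHF2. Matches to a sequence describe the window searched, and binding was not measured.

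Levels are given in CPM, that is, the tags of a gene on its transcript strand, in the ORF or up to 400 nt after it, scaled to the TMM-adjusted library size. The method reads 1 place per transcript, so gene length does not enter a level. In bulk RNA, fewer cells with a transcript and less of it per cell cannot be told apart.

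The most abundant histone transcript came from HHT2 in 13 of the 14 libraries, all but small replicate 4, where HTB1 was highest at 1015 CPM. It reached 1616.75 and 1473 CPM in batch culture at Abs600 0.5, 855 and 1199 CPM at Abs600 2, and 1089.95, 1084 and 1709.82 CPM in fixed unsorted particles. Big colonies gave 1158, 1814 and 2058 CPM, small colonies 921 and 931 CPM, and unfixed particles 270.1 and 249 CPM. The unfixed libraries were below all 12 others. HHF1 came second in the 12 libraries other than small colonies, at 1309.85 and 468 CPM at Abs600 0.5, 473 and 514 CPM at Abs600 2, 614, 564 and 478 CPM in unsorted particles, and 814, 1367 and 899.5 CPM in big colonies. In unfixed particles it stood at 88.5 and 69.6 CPM, and in small colonies at 83.9 and 546 CPM, below 5 other histone genes or more. The 2 libraries at Abs600 0.5 lay far apart in this gene.

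HTA1, HTA2, HTB1, HTB2 and HHF2 lay in a middle range, between 77.9 CPM (HTA2 in unsorted replicate 3) and 428.6 CPM (HTB2 at Abs600 0.5, replicate 1) in the 10 fixed unsorted, big and batch libraries. HHT1, HHO1 and HTZ1 were low, with 25.3 to 92.1, 46.4 to 105.9 and 31.3 to 188.5 CPM there. The order among the low genes was not fixed, since their ranges overlap. HTZ1 had 188.5 CPM in 1 library at Abs600 0.5 and 33.0 CPM in the other.

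**Figure D1:**
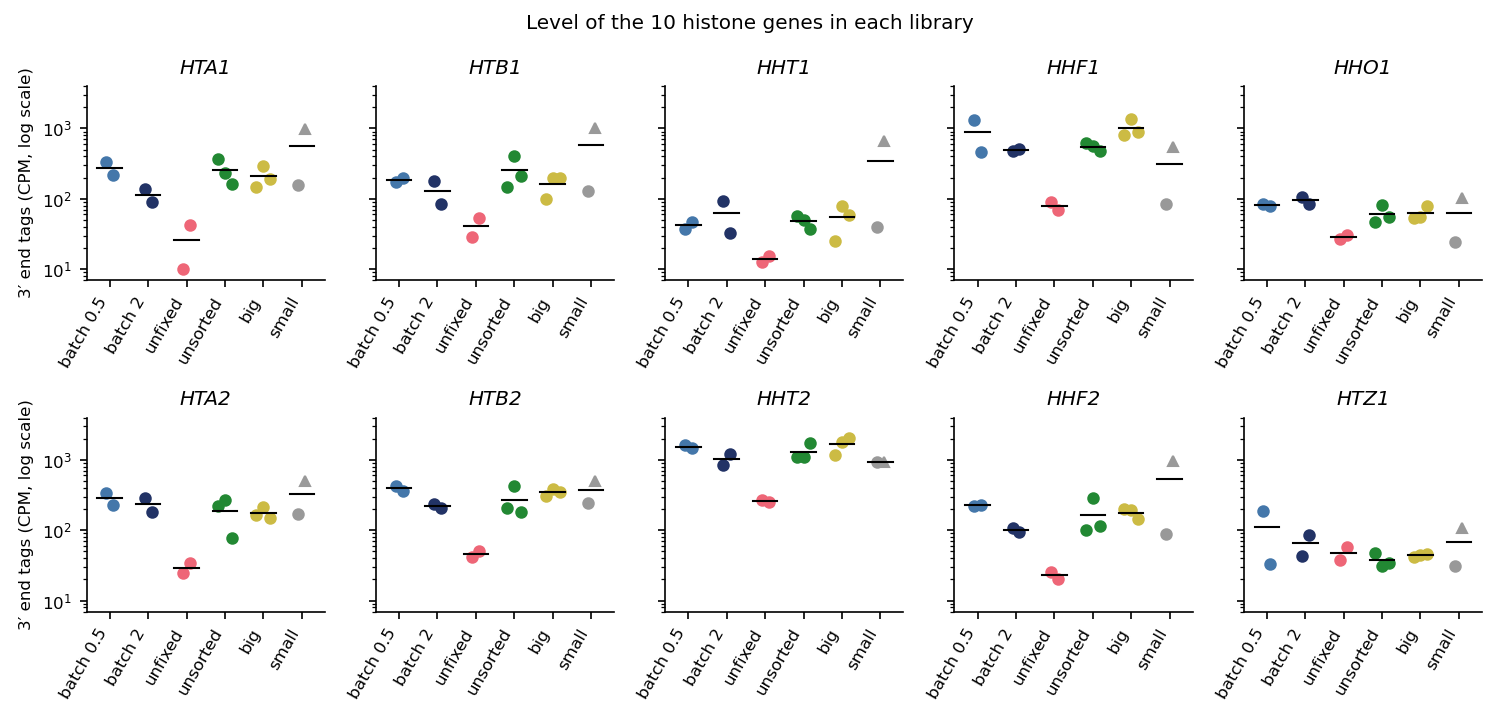
Level of each of the 10 histone genes in CPM (log axis) by group; each point is 1 library, each bar the mean of a group, and the triangle is small replicate 4. The 2 unfixed libraries are below all libraries at Abs600 0.5 for every gene except HTZ1, and small replicate 4 is the highest library for HTA1, HTA2, HTB1, HTB2, HHT1 and HHF2.

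The first comparison asks how growth in particles differs from growth in batch when neither was fixed. Histone transcripts were lower in unfixed particles than in batch culture at Abs600 0.5 (quasi-likelihood test of edgeR, p adjusted by Benjamini-Hochberg over all genes tested, threshold 0.05). Of the 10 genes, 4 fell and none rose, where 1.94% of all genes tested passed in either direction and 1.18% fell. HTA2 went from 339 and 229 CPM to 25.0 and 33.9 CPM, a log2 fold change of -3.27 ± 0.70 (SE, n = 2 and 2, edgeR adjusted p = 0.0221). HTB2 went from 429 and 356 CPM to 42.2 and 50.4 CPM (log2 -3.08 ± 0.58, edgeR adjusted p = 0.0129). In both genes even the higher unfixed library was far below the lower batch library.

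The H3 and H4 genes that fell were the more abundant copy of their pair. HHT2 fell by 2.57 ± 0.51 on the log2 scale (edgeR adjusted p = 0.0165) and HHF1 fell by 3.49 ± 0.76 (edgeR adjusted p = 0.0256). The other copies of the 4 pairs had negative values that did not pass. HTA1 had 9.99 and 42.4 CPM against 334 and 216 CPM (log2 -3.39 ± 0.86, edgeR adjusted p = 0.0554), and HHF2 had 25.4 and 20.5 CPM against 223 and 229.9 CPM (log2 -3.30 ± 0.86, edgeR adjusted p = 0.0615). HTB1 stood at -2.17 ± 0.81 (edgeR adjusted p = 0.200) and HHT1 at -1.59 ± 0.93 (edgeR adjusted p = 0.459).

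The genes outside the divergent pairs did not pass either, with HHO1 at -1.51 ± 0.65 (edgeR adjusted p = 0.282) and HTZ1 at -1.23 ± 0.77 (edgeR adjusted p = 0.495). HTZ1 was also the only 1 of the 10 whose libraries overlapped between the groups. The other 9 did not overlap, and 31.5% of all genes tested were likewise lower in both unfixed libraries than in both batch libraries. The median log2 fold change of the 10 was -2.83, against -0.01 over all genes tested. Summed over the 8 core genes, levels were 503 and 533 CPM in unfixed particles and 4462 and 3213 CPM at Abs600 0.5.

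These calls depended on the libraries in the fit. Without the 2 small libraries, 8 of the 10 genes fell in edgeR, all but HHT1 and HTZ1, where 12.5% of genes passed in either direction. Leaving out any 1 of the 4 libraries compared left none past the threshold in edgeR, and 0.281%, 0.0352%, 0.0176% and 0.494% of all genes without Abs600 0.5 replicate 1 or 2 or unfixed replicate 1 or 2, though the log2 fold changes of the 4 genes stayed between -4.05 and -2.51. In the same 2 unfixed libraries 9.77% and 13.4% of the histone genes' sense tags lay inside an ORF, against 0.635% and 1.35% at Abs600 0.5, and the part of this in the levels was not tested.

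The second comparison sets fixed unsorted particles against unfixed particles, both unsorted, and shares the 2 unfixed libraries with the first. Here 6 of the 10 genes were higher in the fixed libraries and none lower, where 5.84% of all genes passed in either direction and 3.38% were higher. HTA1 rose from 9.99 and 42.4 CPM to 372, 235 and 163 CPM (log2 3.29 ± 0.82 SE, n = 3 and 2, edgeR adjusted p = 0.0260). HTA2, HTB2, HHT2, HHF1 and HHF2 rose by 2.69 ± 0.65, 2.54 ± 0.54, 2.32 ± 0.49, 2.80 ± 0.71 and 2.85 ± 0.81, with edgeR adjusted p of 0.0108 to 0.0494. HTB1 (2.64 ± 0.79, edgeR adjusted p = 0.0625), HHT1 (1.78 ± 0.88, adjusted p = 0.293) and HHO1 (1.08 ± 0.60, adjusted p = 0.362) did not pass.

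For 9 of the 10 genes every fixed library was above both unfixed ones, as for 23.7% of all genes tested. HTZ1 overlapped, with 37.4 ± 8.43 CPM (SD, n = 3) in fixed and 47.4 ± 14.4 CPM (SD, n = 2) in unfixed particles (log2 -0.34 ± 0.69, edgeR adjusted p = 0.844). The number of genes past the threshold was 8 without the small libraries, where 20.1% of all genes passed in edgeR. It was 0 without unfixed replicate 1 or 2, where 0.635% and 1.87% of all genes passed. It was 2 without unsorted replicate 1 or 2 and 4 without unsorted replicate 3, where 2.75%, 2.64% and 3.44% of all genes passed.

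**Figure D2:**
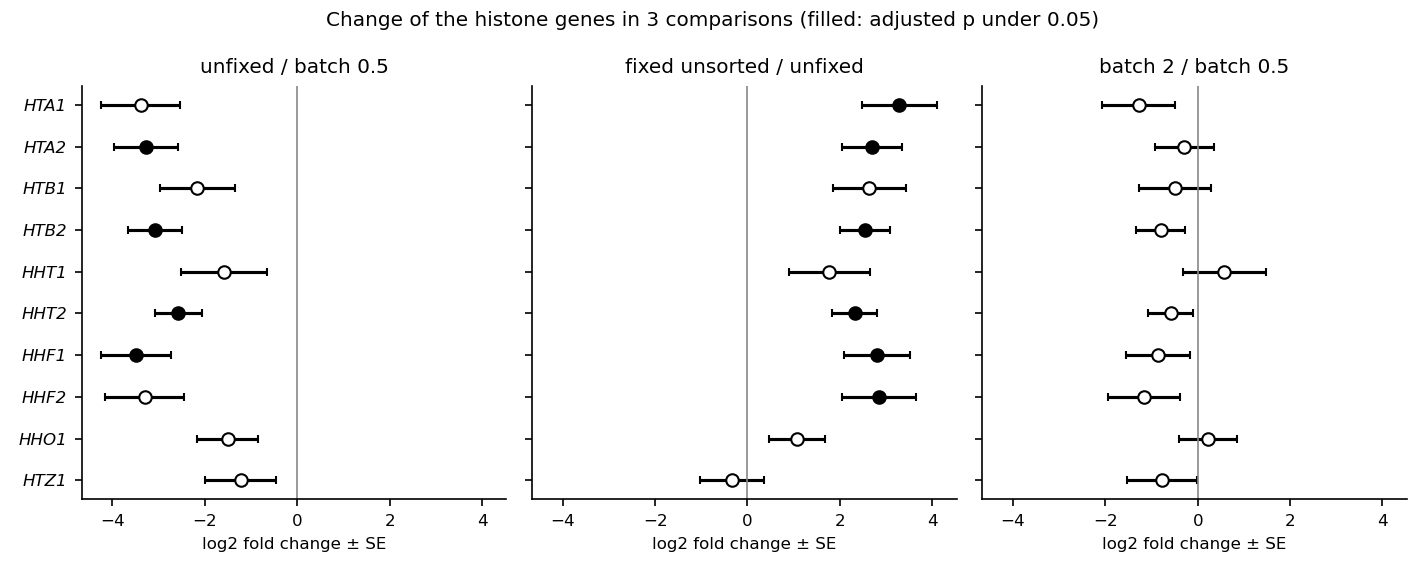
Log2 fold change with its standard error for the 10 histone genes in 3 comparisons; filled points have an edgeR adjusted p under 0.05. In unfixed particles against Abs600 0.5 all 10 values are negative (-3.49 to -1.23), in fixed unsorted against unfixed particles 9 are positive, and at Abs600 2 against 0.5 no point is filled.

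Set side by side, fixed unsorted particles and batch culture at Abs600 0.5 had histone levels that the test did not separate. No gene of the 10 passed in edgeR, where 0% of all genes tested did, or in DESeq2. HTZ1 alone had an unadjusted p under 0.05 in edgeR, as did 120 of all 5529 genes tested. The core sum was 2812, 3312 and 2975 CPM in unsorted particles, just below or within the 3213 to 4462 CPM of the batch libraries. HHT2 differed by -0.25 ± 0.44 on the log2 scale and HTA1 by -0.10 ± 0.70. HTZ1 had a log2 fold change of -1.56 ± 0.69 (edgeR adjusted p = 1), which became 0.18 without Abs600 0.5 replicate 1, the library with 188.5 CPM.

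Big colonies and unsorted particles asked whether sorting for size changes the histone genes. No gene of the 10 passed in edgeR (0% of all genes) or in DESeq2, and none had an unadjusted p under 0.05. HHF1 was the single gene whose libraries did not overlap, with 1027 ± 298 CPM (SD, n = 3) in big colonies and 552 ± 68.7 CPM (SD, n = 3) in unsorted particles (log2 0.90 ± 0.57, edgeR adjusted p = 1). Over all genes tested, 7.52% did not overlap. The core sum in big colonies was 2916, 4538 and 4039.75 CPM.

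Small against big colonies gave values that turned on 1 library. No gene of the 10 passed in edgeR, where 1.27% of all genes did. An unadjusted p under 0.05 was found for 4 of them and for 20.2% of all genes, and DESeq2 called 2 (HTB1 and HHT1, both higher in small) and 11.1% of all genes. HHT1 had 40.0 CPM in small replicate 2 and 656 CPM in replicate 4, against 25.3, 79.7 and 59.4 CPM in big colonies (log2 2.67 ± 0.81, edgeR adjusted p = 0.0983). HTB1 had 129.7 and 1015 CPM against 97.7, 194 and 197 CPM (log2 1.81 ± 0.70, edgeR adjusted p = 0.161). In both genes replicate 2 lay inside the range of the big colonies and replicate 4 far above it.

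Without small replicate 4 the log2 fold change of HHT1 was -0.46 and that of HTB1 was -0.33, and 1 gene passed in edgeR, HHF1, lower in small colonies (-3.61), where 35.5% of all genes passed. HHF1 had 83.9 CPM in small replicate 2, 546 CPM in replicate 4 and 814 to 1367 CPM in big colonies. Without replicate 2 instead, 5 genes passed, all higher in small colonies (HTA1, HTA2, HTB1, HHT1 and HHF2), where 29.3% of all genes passed. Each of these fits has 1 small library, which is assumed to vary as the other groups do. The part of the strain marker tags and the separate barcode of replicate 4 in these values was not tested.

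Cell density in batch culture was compared between Abs600 2 and Abs600 0.5. Of the 10 genes, none passed in edgeR (0% of all genes) or in DESeq2 and none had an unadjusted p under 0.05. Even so, 4 had both libraries at Abs600 2 below both at 0.5, as did 21.6% of all genes. HTA1 had 137 and 90.3 CPM against 334 and 216 CPM (log2 -1.28 ± 0.79), and HHF2 had 108 and 93.4 CPM against 223 and 229.9 CPM (log2 -1.17 ± 0.79). The core sum was 2367 and 2404 CPM, below both libraries at 0.5.

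The copies of a pair did not contribute equally. HHT2 gave most H3 tags: the share of HHT1 was 2.10% to 9.73% in the 12 libraries other than small colonies. HHF1 gave most H4 tags, with a share of 66.6% to 87.5% in those libraries. With the 400 nt window the H2B and H2A pairs were more even, with shares of 24.0% to 54.0% for HTB1 and 28.6% to 67.7% for HTA1.

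Small colonies had the lowest HHF1 shares of all 14 libraries, at 48.5% in replicate 2 and 35.9% in replicate 4. For H3 only replicate 4 differed from the rest, with an HHT1 share of 41.3%, while replicate 2 had 4.16%. For H2B, replicate 4 had the highest HTB1 share of the 14 (66.7%) and replicate 2 had 34.4%.

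The HTA1 share was 49.6% (95% exact binomial interval 47.0% to 52.2%) and 48.5% (44.5% to 52.5%) at Abs600 0.5, and 32.4% (29.8% to 35.1%) and 33.3% (30.3% to 36.4%) at Abs600 2. Unsorted particles had 62.5%, 46.6% and 67.7%, and big colonies 47.4%, 58.2% and 56.0%. Both libraries at Abs600 2 lay below every fixed library and below both at 0.5, whereas the libraries at 0.5 lay within the range of the fixed ones.

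Over the 6 fixed unsorted and big libraries the HTA1 share was 56.4% ± 8.30 (SD, n = 6), and over the 4 batch libraries 41.0% ± 9.37 (SD, n = 4). The difference of 15.4 points gave p = 0.0571 in a two-sided exact permutation test, adjusted p = 0.229 over the 4 pairs, where 0.00952 is the smallest value 210 arrangements allow. Against Abs600 2 alone the difference was 23.5 points (exact permutation p = 0.0714, the smallest value that 6 against 2 allows), and against Abs600 0.5 alone 7.33 points (exact permutation p = 0.429). Unfixed particles had 28.6% (18.8% to 40.0%) and 55.6% (47.8% to 63.1%), which rested on 77 and 171 tags.

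The shares of the other pairs differed less between fixed and batch libraries than their spread. HTB1 took 39.7% ± 10.8 (SD, n = 6) against 33.8% ± 6.65 (SD, n = 4), with an exact permutation p of 0.343 and 0.686 adjusted over the 4 pairs. HHT1 took 3.43% ± 1.24 against 4.43% ± 3.54 (exact permutation p = 0.638, adjusted 0.714), and HHF1 81.2% ± 7.77 against 79.6% ± 8.56 (exact permutation p = 0.714, adjusted 0.714). Between big and unsorted particles the HTB1 share did not overlap, with 24.0%, 33.8% and 36.3% in big colonies and 41.6%, 48.8% and 54.0% in unsorted particles. The exact permutation p of 0.100 is the smallest that 3 against 3 allows. With the 200 nt window these groups overlapped, at 37.2%, 77.3% and 81.4% in big colonies and 82.1%, 71.6% and 86.7% in unsorted particles.

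**Figure D3:**
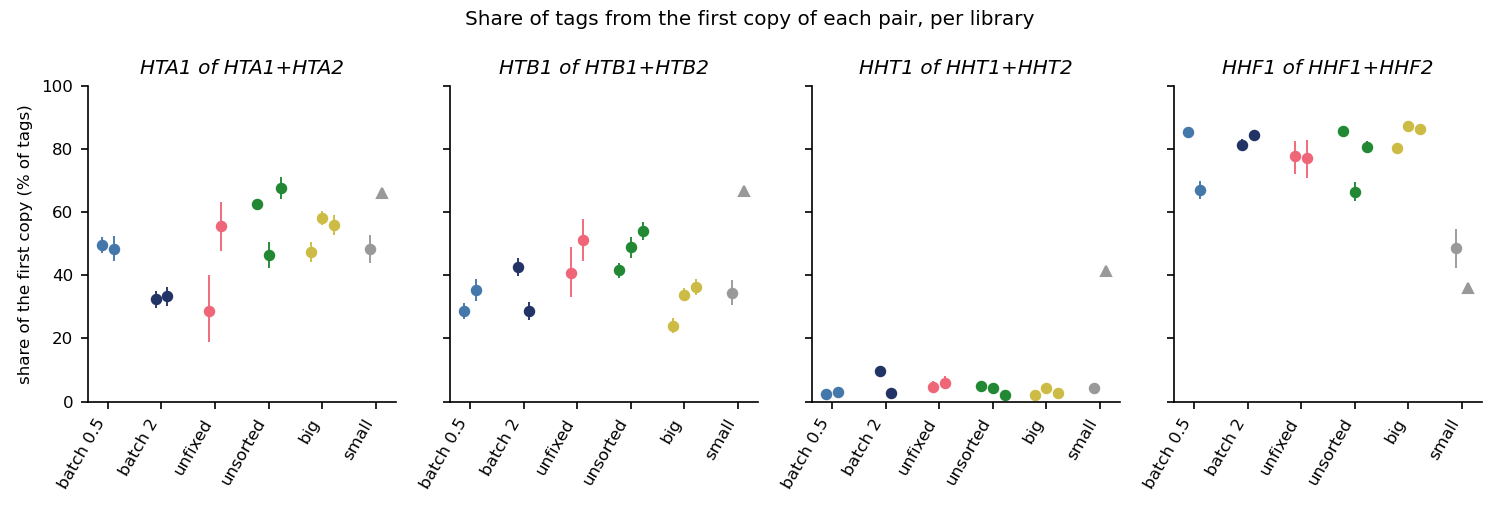
Share of the first-named copy in the tags of each pair, in percent, for each of the 14 libraries; vertical lines are 95% exact binomial intervals, which cover counting error only, and the triangle is small replicate 4. The HTA1 share is 32.4% and 33.3% at Abs600 2, and the HHT1 share is under 10% except in small replicate 4.

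How far past the ORF tags are counted changed the balance of H3 and of H2B. The main 3′ end of HHT2 lay 250 nt after the ORF, and 83.5% to 98.7% of its tags in the 14 libraries fell more than 200 and up to 300 nt after it. With a window of 200 nt the HHT1 share became 68.8% and 65.3% at Abs600 0.5, where the window of 400 nt gives 2.27% and 3.05%. The log2 fold change of HHT2 in unfixed particles against Abs600 0.5 turned from -2.57 to 0.44, and that of fixed unsorted against unfixed particles from 2.32 to -0.68. HTB2, whose main end lay 255 nt after the ORF, lost part of its tags in the same way, and the HTB1 share ran from 34.5% to 87.4% in the 12 libraries other than small colonies with the 200 nt window.

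Where transcripts ended was compared by the mean distance of a gene's tags from the end of its ORF, tested with limma in 2746 genes that had 30 tags or more in every one of 12 libraries, small colonies left out. HTA1 and HHT1, with 22 and 28 tags in 1 unfixed library, were not tested. The members tested were thus 8 of 10.

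In batch culture, mean 3′ end positions were nearer to the ORF at Abs600 2 than at 0.5 in each of the 8 histone genes tested. None passed the threshold in limma (0.619% of all genes did). An unadjusted p under 0.05 was found in limma for 5 of the 8, a count for which no value over all genes is given here. The median shift of the 8 was -39.1 nt, against -12.3 nt over all genes tested. In 7 of the 8 the libraries did not overlap, as in 53.4% of all genes tested, which were nearer in the same way.

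HTB1 shows the pattern tag by tag. At Abs600 0.5, 16.6% and 10.1% of its tags lay within 100 nt of the ORF, and at Abs600 2 it was 76.9% and 50.2%. Its most used site over the 12 libraries lay at 127 nt, shown above, and that at Abs600 2 at 68 nt after the ORF. For HTB2, 48.1% and 60.3% of tags lay more than 200 and up to 300 nt after the ORF at Abs600 0.5, and 5.47% and 24.0% at Abs600 2, where the most used site was at 179 nt. HHT1, not tested, had 13.8% and 12.1% of tags within 100 nt at Abs600 0.5 and 73.4% and 40.2% at Abs600 2. The sites that were most used at Abs600 2 read as follows, in the same layout.

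HTB1 at Abs600 2 (68 nt): atataaaaattaaagtaaagTaaaaaaaat
HTB2 at Abs600 2 (179 nt): ttataaacaaaaaaaattggGaaagatatt
HHT1 at Abs600 2 (71 nt): atataaatcaatatatttagGtttactggg
HTA2 at Abs600 2 (170 nt): aataaagaaaataaaaaacgTatcaagttt

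They lie at chrIV:914240-914269 (minus strand), chrII:237046-237075 (plus), chrII:256792-256821 (plus) and chrII:235215-235244 (minus). Of the 9 bases after the site of HTB1, 8 are A, and of those after the site of HHT1, 1 is A. Over the 10 genes, 12.6% of tags after the ORF at Abs600 2 preceded at least 6 A in the next 10 bases. At Abs600 0.5 it was 4.63%. In HTB1 it was 331 of 762 tags at Abs600 2 and 51 of 635 at 0.5. HTA2 had 402 of 1431 and 99 of 1040. For HTB2 these counts were 74 of 1438 and 72 of 1418, and for HHT1 27 of 363 and 21 of 139. HHT2, whose most used site stayed the same, gave the most such tags of any member, 1018 of 6695 and 306 of 5532. The part of such tags in the nearer ends was not tested. The other 6 genes kept their most used site at Abs600 2. HHF2 nevertheless had the largest tested shift among the core genes, -69.1 ± 11.9 nt (SE, limma adjusted p = 0.0557), with 51 of 314 and 33 of 331 tags inside the ORF at Abs600 2, and 2 of 474 and 0 of 327 at 0.5.

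**Figure D4:**
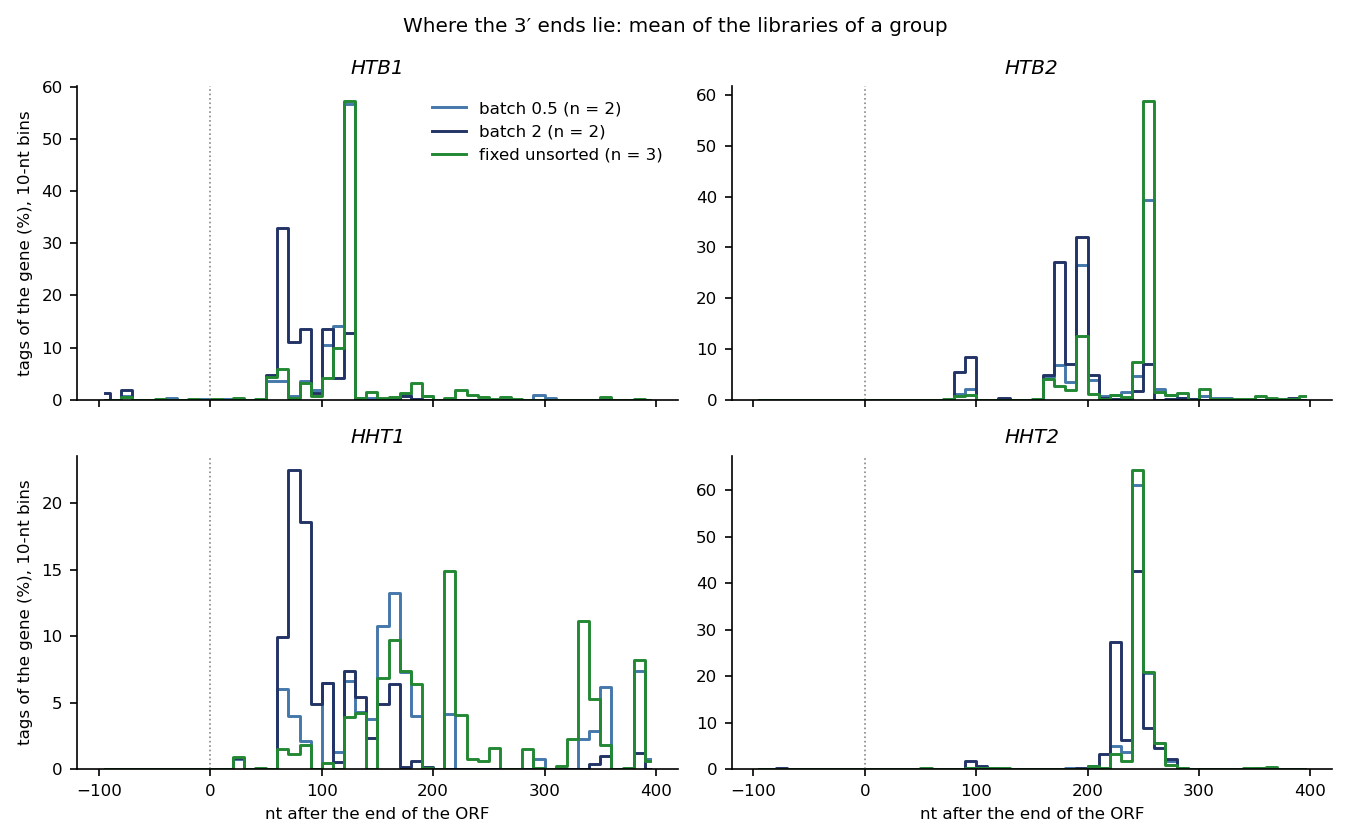
Percent of a gene's tags in bins of 10 nt along the distance from the end of the ORF (dotted line), as the mean over the libraries of a group, for HTB1, HTB2, HHT1 and HHT2. Batch culture at Abs600 2 has more tags near the ORF in HTB1, HTB2 and HHT1, and in HHT2 most tags of all 3 groups are more than 200 and up to 300 nt away.

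Taken over all histone genes, more of the tags lay inside the ORF in unfixed particles, but this did not hold in each gene. HTA2 had 20 of 55 and 19 of 76 tags there, and HTB1 15 of 64 and 73 of 118. HTB2 had 1 of 93 and 0 of 113, HHF1 0 of 195 and 2 of 156, and HHF2 0 of 56 and 0 of 46. Against Abs600 0.5, 3 of the 8 genes tested passed in limma, all shifted towards the ORF, where 5.13% of all genes passed and 4.77% were nearer. HTA2 shifted by -143 ± 14.4 nt (limma adjusted p = 0.00113), HTB1 by -134 ± 19.5 nt (adjusted p = 0.00658) and HHT2 by -23.4 ± 4.60 nt (adjusted p = 0.0250). HTB2 (39.4 ± 17.7 nt, limma adjusted p = 0.324) and HHF2 (19.1 ± 18.7 nt, adjusted p = 0.686) had values the other way, with both unfixed libraries farther than both batch libraries. The 3 genes that passed differed in the opposite direction between fixed unsorted and unfixed particles, where 6.7% of all genes passed and 6.05% were farther. HHT1, which could not be tested, had 25.0% and 85.3% of its tags inside the ORF in the unfixed libraries, of 28 and 34 tags.

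Over the 10 genes, 9.77% and 13.4% of sense tags lay inside an ORF in unfixed particles. In the other 12 libraries it was 0.271% to 4.81%, with the highest values at Abs600 2. Of the tags inside ORFs in unfixed particles, 17.2% preceded a stretch with at least 6 A in the next 10 bases, against 42.4% at Abs600 2 and 67.6% to 95.3% in the other 4 groups. In each group most tags before such a stretch came from HHO1 and HTZ1, so the shares depend on the mix of genes. HHO1 had 21 of 21 in unfixed particles, 177 of 177 at Abs600 2 and 95 of 95 in unsorted particles. HTZ1 had 18 of 70, 59 of 80 and 130 of 130, respectively. Tags on the antisense strand inside the ORFs amounted to 29.0 and 6.96 per 100 sense tags in unfixed particles. In the other libraries it was at most 0.443. Values over all genes are not given here for either share, so neither is shown to be particular to histone genes. Near isolated genes in general, 90.5% and 91.3% of tags in the unfixed libraries lay on the transcript strand. These were the lowest values of the 12 libraries other than small colonies.

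HTA1 and HTB2 carried most of these antisense tags, with 113 and 105 in unfixed replicate 1 and 41 and 16 in replicate 2. HTB2 also had 22, 37 and 51 antisense tags in big colonies and 7 to 24 in unsorted particles. The part of the tags inside ORFs and on the antisense strand in the lower levels of the unfixed libraries was not tested.

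**Figure D5:**
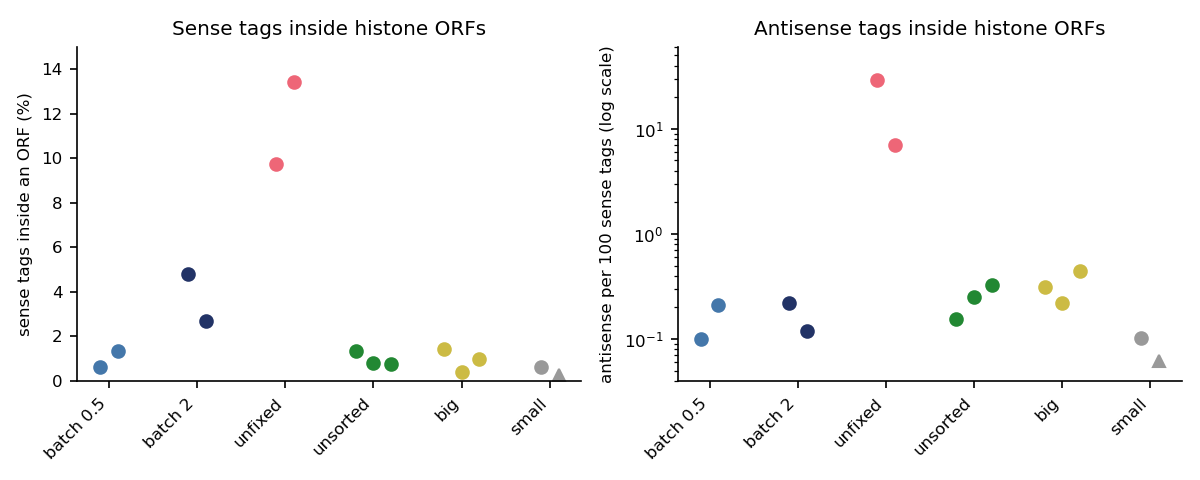
Left, percent of sense tags of the 10 histone genes that lie inside an ORF; right, antisense tags inside the ORFs per 100 sense tags (log axis). Each point is 1 library, and the triangle is small replicate 4. The 2 unfixed libraries are highest in both, at 9.77% and 13.4% and at 29.0 and 6.96.

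Between fixed unsorted particles and Abs600 0.5, and between big and unsorted particles, no histone gene passed the position test in limma (0% of all genes in each), and none had an unadjusted p under 0.05. HHT2 ended at 250.8 ± 0.653 nt (SD, n = 3) in unsorted particles and at 249.7 ± 0.160 nt (SD, n = 2) at Abs600 0.5.

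The genes around histone supply were described by 4 lists. They hold regulators of histone transcription (11 of 12 tested, among them HIR1, HIR2, HIR3, HPC2 and SPT21), chaperones and modifiers of new histones (13 of 14), the SWR1 complex, which places H2A.Z (13 of 14), and replication genes of S phase (26). No member of any list passed in edgeR in any of the 6 comparisons with all 14 libraries. In unfixed particles against Abs600 0.5, 3, 2, 0 and 2 members had an unadjusted p under 0.05 and DESeq2 called 0, 1, 0 and 0, where 15.1% of all genes had such a p and DESeq2 called 7.29%. In fixed unsorted against unfixed particles these counts were 2, 1, 3 and 1 in edgeR, and 2, 1, 1 and 0 in DESeq2, which called SWI6, SPT21, RLF2 and YAF9, against 18.8% and 11.7% of all genes. Without the small libraries, edgeR called 1 member of each list in unfixed particles against Abs600 0.5 (SWI6, RLF2, YAF9 and RFC3), where 12.5% of all genes passed. In fixed unsorted against unfixed particles it then called 2, 1, 4 and 1 (SWI6 and SPT21, RLF2, SWR1, SWC4, YAF9 and RVB2, and RFC3), where 20.1% of all genes passed. In the other 4 comparisons at most 3 members of a list had an unadjusted p under 0.05, and DESeq2 called 1, VPS72 in small against big colonies.

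The lists' medians in unfixed particles against Abs600 0.5 were -0.23, -0.25, -0.31 and -0.78 on the log2 scale, beside -0.01 for all genes and -2.83 for the histone genes. SPT21, which acts with SPT10 at histone promoters, had a log2 fold change of -4.13 ± 1.77 (edgeR adjusted p = 0.276), and RLF2, the large subunit of the chromatin assembly factor CAF-1, -1.70 ± 0.55 (edgeR adjusted p = 0.134). RLF2 was the member DESeq2 called. CSE4, the H3 variant of the centromere, had 17.5 ± 1.06 CPM in unfixed particles and 37.4 ± 9.72 CPM at Abs600 0.5 (SD, n = 2 each, edgeR adjusted p = 0.656).

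Across the 12 libraries other than small colonies, Pearson's r of log2 CPM between any 2 of the 8 core genes was 0.680 to 0.976, while HTZ1 had -0.133 to 0.245 with the other 9. This rested on the 2 unfixed libraries: over the 10 libraries without them r between core genes ran from -0.416 to 0.900, and HTZ1 had -0.397 to 0.500. The 5 other genes most like the mean of the core genes, of 3943 with a mean of at least 20 CPM, were GSP1 (r = 0.975), PWP2 (0.970), ENP1 (0.970), HXT3 (0.970) and ESF2 (0.970). GSP1 encodes the yeast Ran GTPase, PWP2, ENP1 and ESF2 act in ribosome biogenesis, and HXT3 is a glucose transporter. Without the unfixed libraries r was 0.681 to 0.743 for these 5 genes. The 12 libraries share their processing but differ in depth (1506960 to 4750543 tags), and the values describe likeness only.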

How the data were processed

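The deposited file gives unnormalized counts of 3′T-fill tags at 542908 stranded positions, 1 column per library, as the authors made them (whole numbers whose sums differ between libraries). Per the submitters' processing notes, the tools were CASAVA 1.8.2 and GSNAP and the builds R64 and sacCer3; filters, removal of duplicates and the role of each tool are not given in the sources used here. No molecular identifiers are described, so intervals cover counting error only.

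The strand column was reversed, since tags near genes lay opposite to it; near 700 isolated genes 87.6% to 95.0% then lay on the transcript strand. A tag was counted for 1 of 6002 RefSeq R64 protein-coding genes when inside the ORF or up to 400 nt after it (200 nt as an alternative) before the next gene on the strand. Small replicates 1 and 3, which the submitters excluded for low quality (11821 and 839550 tags), were left out.

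Tags per gene went into edgeR 4.0.16 (glmQLFit, robust, TMM, filterByExpr) in 1 fit of 14 libraries with 8 residual degrees of freedom. Mean 3′ end distances were tested with limma 3.58.1, weighted by tags up to 200. Copy shares were tested by exact permutation over libraries (scipy 1.17.1). DESeq2 1.42.0, RLE scaling, no filter, fits of fewer libraries and leaving out each library were alternatives, and the fits were tested on simulated data. The members, the lists and the tests were chosen with earlier results of these data known. The text names all 10 members, list members past the threshold or discussed beside a count, CSE4 and the 5 genes most like the core genes. The 3′ end sequences come from RefSeq R64 coordinates.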

Additional observations from a re-analysis of the deposited data

Results flagged for a closer look

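The HHT1 share of H3 tags was 9.73% in batch culture at Abs600 2, replicate 1, while the other 3 batch libraries had 2.27% to 3.05%, so this library lay far from the others. The HHF1 share of H4 tags was 66.6% in unsorted replicate 2, while the other 5 fixed unsorted and big libraries had 80.5% to 87.5%. Shares were examined in 8 sets of libraries, and chance marks about 1 set in 20.

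Antisense tags inside histone ORFs were outside the main measurement. They came to 29.0 and 6.96 per 100 sense tags in unfixed replicates 1 and 2, above the 0.0993 to 0.219 of the 4 batch libraries. Big colonies, at 0.311, 0.223 and 0.443, were also above the batch libraries, by far less. Values over all genes are not given here, and the reason was not tested.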

How the results depend on the processing

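For unfixed particles against Abs600 0.5, 4 genes passed; it was 8 in the fit of the 2 groups alone, 8 with a replicate block and 8 without the small libraries, and 0 to 0 when any 1 library was left out. For fixed unsorted against unfixed particles, 6 passed; it was 2 with the 200 nt window and 0 to 4 with 1 library left out. For small against big colonies, 0 passed; it was 2 in DESeq2, 1 with a replicate block and 0 to 5 with 1 library left out. For 3′ end positions, 1 gene instead of 3 passed in each comparison with unfixed particles when 100 tags were required, a rule that left 2 members tested. At Abs600 2 against 0.5, 1 passed instead of 0 with the 200 nt window. Settings also change how many genes pass in all. For levels in unfixed particles against Abs600 0.5 it was 1.94% of all genes, and 12.5% without the small libraries. Shares of all genes under the fit of the 2 groups alone, the replicate block, the 200 nt window and the 100-tag rule are not given here. The counts under those settings are thus not set against all genes.

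The 200 nt window turned HHT2 to 0.44, -0.68, 1.51 (small against big) and 1.16 (Abs600 2 against 0.5), HTB2 to 0.028 (Abs600 2 against 0.5) and HHO1 to -0.38 (small against big). With a replicate block, small against big turned to -0.67 (HTA1), -0.38 (HTA2), -0.49 (HTB1), -0.72 (HTB2), -0.54 (HHT1), -1.29 (HHF2), -1.34 (HHO1) and -0.42 (HTZ1). With 1 library left out that comparison ranged from -0.43 to 2.19 (HTA1), -0.061 to 1.496 (HTA2), -0.33 to 2.63 (HTB1), -0.48 to 0.55 (HTB2), -0.46 to 3.57 (HHT1), -1.005 to 2.44 (HHF2), -1.35 to 0.70 (HHO1) and -0.51 to 1.27 (HTZ1). HTZ1 ranged from -1.99 to 0.52 (unfixed against Abs600 0.5), -0.61 to 0.016 (fixed unsorted against unfixed) and -2.33 to 0.18 (fixed unsorted against Abs600 0.5), and its 3′ end shift at Abs600 2 from -106 to 13.4 nt. The HHF1 share difference was -1.92 points with unsorted particles alone and -2.58 to 4.54 with 1 library left out, and that of HHT1 was -1.72 to 0.766. The 200 nt window ends before the main sites of HHT2 and HTB2. No other group has a replicate 4, so the replicate block takes up small replicate 4. Small against big with that block thus rests on small replicate 2. The causes of the other changes were not tested.

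Libraries with the same number in different groups had correlations of -0.166 to 0.188, so the numbers were not taken to pair libraries. The replicate block changed a count of calls by over 1.5 times only as given above. The unfixed libraries held the fewest histone tags of the 14 libraries compared (1249 and 1393), and 22 and 28 tags of HTA1 and HHT1 were left in 1 of them. They were not the shallowest, with 2277047 and 2247522 tags in all against 1506960 in unsorted replicate 2.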
